A study of Mus musculus with 12 samples.

Results

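The genes described here were 10 genes of the NF-kB pathway: the transcription factor subunits Nfkb1, Nfkb2, Rela and Relb, the feedback genes Nfkbia, Tnfaip3 and Birc3, and the cytokines Tnf, Il1b and Il6. They were chosen by name as a pathway group and are 10 of the 28689 genes in the table. RNA sequencing compared mouse lung endothelial cells (MLECs) of 6 dKO and 6 CTR libraries, asking what endothelial loss of the transcription factors Sp1 and Sp3 does to gene expression. The dKO mice carried VE-CAD-CreERT2+/Sp1 fl/fl/Sp3 fl/fl, in which a tamoxifen-activated Cre is driven by the promoter of VE-cadherin, an endothelial junction protein. The CTR mice were littermates without Cre that carried the same floxed alleles, although the labels call their genotype WT. Mice of both groups received tamoxifen, were male and were 6 to 8 weeks old. MLECs were selected from digested lung with beads against CD31 and then ICAM2 and grown for 1 to 3 passages before use, so the values describe cultured cells. The sources used here do not say whether a library came from 1 mouse or from pooled mice, and the p-values measure the spread between these libraries.

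NF-kB dimers are held in the cytoplasm by inhibitor (IkB) proteins until a kinase complex (IKK), activated downstream of receptors for TNF, IL-1 or microbial products, marks the inhibitor for destruction. The freed dimers enter the nucleus and bind short κB motifs in promoters and enhancers. Among the genes they switch on are their own brakes, so the transcripts of Nfkbia and Tnfaip3 are widely used as readouts of recent NF-kB activity. In endothelium the pathway is known for adhesion molecules and chemokines that recruit leukocytes.

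Values are FPKM, fragments normalised to gene length and library size, so levels of different genes are compared per length. A library held 15523054 to 17938286 fragments. The targeted gene Sp1 was 19.4 to 23.7 FPKM in the CTR libraries and 8.42 to 12.1 in the dKO libraries, which did not overlap. Sp3 was 24.2 to 31.1 in CTR and 22.5 to 26.9 in dKO, with 2 dKO libraries below every CTR library, so Sp3 transcript level alone did not separate the groups. All 10 endothelial markers examined were present, Cdh5 at 66.8 to 162 FPKM over the 12 libraries and Pecam1 at 26.1 to 71.3. The libraries also held transcripts of other cell types. The summed FPKM of 10 macrophage markers was 717 to 1258 in CTR and 2330 to 5299 in dKO, and of the 9 markers that reached 1 FPKM in every CTR library 9 were higher in dKO. The sum of 10 endothelial markers was 150.1 to 232.8 in CTR and 280.0 to 375.7 in dKO, with 9 of 10 higher, and that of 8 fibroblast markers was 2155 to 2724 in CTR and 847 to 1671 in dKO, with 4 of 7 tested lower and 1 higher. Of 10 leukocyte markers 8 were in the table and 3 were tested, with sums of 9.01 to 13.6 in CTR and 20.3 to 28.3 in dKO. The sum of 6 mesothelial markers was 28.8 to 38.6 in CTR and 66.3 to 145.9 in dKO, with 3 of 3 higher among those that reached 1 FPKM in every CTR library. Of 11 interferon response genes 6 reached 1 FPKM in every CTR library, and 6 of 6 were higher. The sums of the 11 were 27.3 to 39.4 in CTR and 106.5 to 442.6 in dKO. In such bulk samples, fewer cells of a type and less RNA per cell cannot be told apart.

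The library dKO replicate 5 stood apart from the other 5 dKO libraries in these genes. It held the highest value of all 12 libraries for 10 of the 10 genes, while it was the highest of 12 for 5.99% of the 12467 genes tested. Its excess over the median of the other dKO libraries ran from 1.28-fold for Rela and 1.64-fold for Nfkb1 to 41.7-fold for Il1b and 44.3-fold for Tnf. It lay more than 1 above every other dKO library on the log2(FPKM + 1) scale for 4 of the 10 genes, Nfkbia, Tnfaip3, Tnf and Il1b, as it did for 0.297% of the tested genes. By Dixon's criterion its value stood high among the dKO libraries for 8 of the 10 genes, all but Rela and Il6, and for 1.05% of the tested genes. It held 17511731 fragments and 21134 genes above 0, both within the range of the other dKO libraries. Its macrophage marker sum of 2330 was the lowest of the dKO libraries, and its endothelial marker sum of 375.7 was the highest. Its sum of 8 leukocyte markers was 22.1, against 20.3 to 28.3 in the other dKO libraries, with S100a8, a neutrophil and monocyte marker, at 5.35 FPKM against 3.94 to 8.45. The part that cell composition or handling had in this library was not tested. The test of each of the 10 genes is therefore given with and without it, and so are those of most other pathway genes named.

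**Figure D1:**
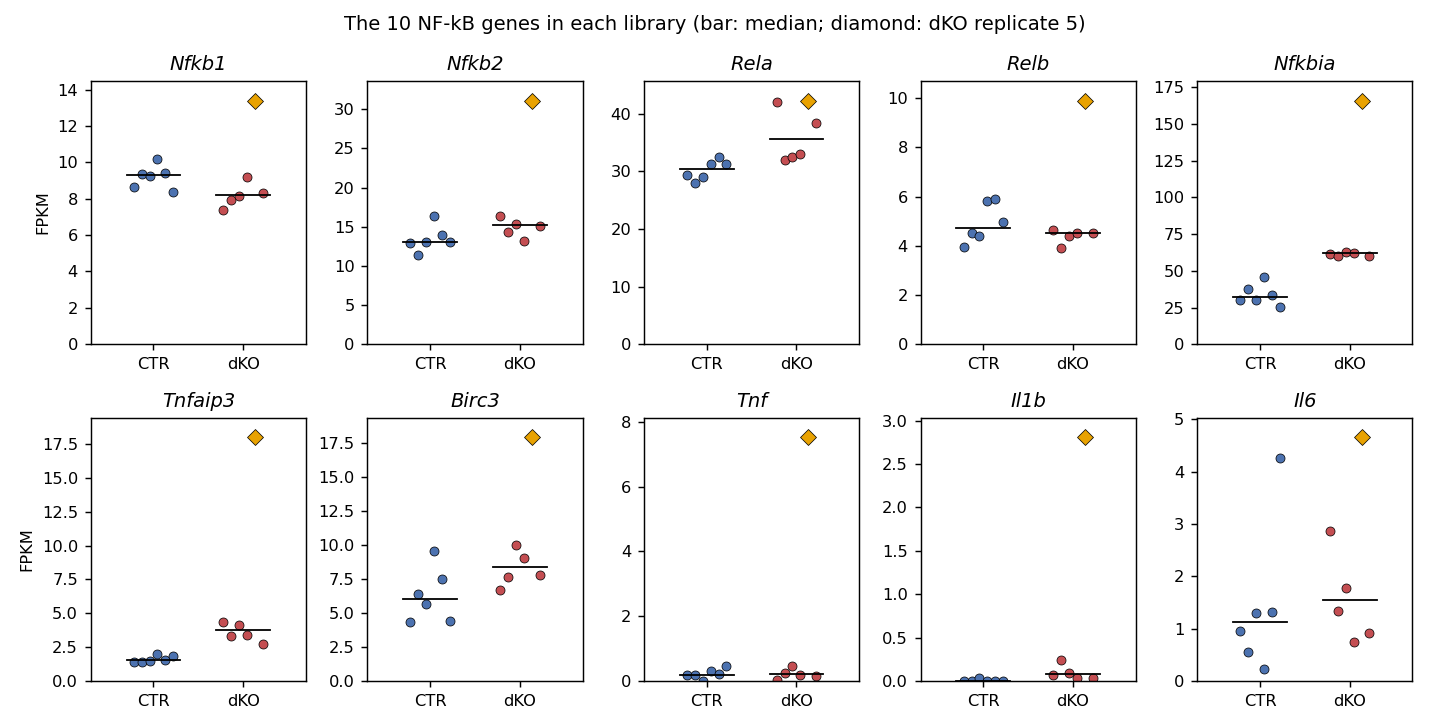
FPKM (linear axis from 0, a scale of its own in each panel) of the 10 genes in the 6 CTR (blue) and 6 dKO libraries (red, dKO replicate 5 as an orange diamond), with the bar at the group median. The diamond is the highest point in all 10 panels; Nfkbia and Tnfaip3 are the panels in which the other dKO libraries also lie above every CTR library.

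The 10 genes lie on 9 chromosomes of GRCm39, the mouse build to which the study aligned its reads, and GC boxes, the motif that Sp factors bind, were sought in their promoters. The window was the 250 bases before the start of 1 transcript a gene (the GENCODE canonical one), read on both strands. Where other transcripts of a gene start further upstream, exons of that gene reach into its window, over 110 bases for Tnfaip3, 18 for Rela and 2 for Relb. A GC box (GGGCGG) was found in 5 of the 10 windows, those of Rela, Relb, Nfkbia, Tnf (1 each) and Tnfaip3 (3), and in 47.8% of the windows of 12375 tested genes. A match to the κB consensus was found in 4 windows, those of Relb, Nfkbia, Tnfaip3 and Il6, and in 8.14% of the tested windows. Neither motif's letters were in the windows of Nfkb1, Nfkb2, Birc3 and Il1b. The stretches below are the κB matches of 3 genes and the GC boxes of Rela and Tnfaip3, shown as examples of both motifs in their surroundings. Of these genes Relb and Il6 were not called in the comparison. Each runs 5′ to 3′ on the strand of its gene, and capitals mark the motif. The Relb stretch is chr7:19363431-19363480 (minus strand), that of Nfkbia chr12:55539433-55539481 (minus), that of Il6 chr5:30218048-30218097 (plus), that of Rela chr19:5687434-5687479 (plus) and that of Tnfaip3 chr10:18891219-18891292 (minus). The Tnfaip3 stretch lies inside the annotated gene but outside its exons. In it the last 2 GC boxes share 1 base, and that gene's κB match, 97 to 88 bases before the start, stands in lower case just before the first GC box. The Nfkbia stretch also holds that gene's GC box, reversed, in its last bases.
Relb κB: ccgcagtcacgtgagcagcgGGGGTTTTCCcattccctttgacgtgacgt
Nfkbia κB: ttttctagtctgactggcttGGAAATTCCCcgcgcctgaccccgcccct
Il6 κB: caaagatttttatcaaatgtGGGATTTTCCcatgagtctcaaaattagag
Rela GC box: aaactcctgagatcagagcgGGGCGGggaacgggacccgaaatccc
Tnfaip3 GC boxes: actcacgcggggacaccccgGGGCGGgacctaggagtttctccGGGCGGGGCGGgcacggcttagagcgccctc
A match describes these letters and is not a binding site.

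Of the 10 genes, 8 passed the expression filter and were tested, and 3 of them (37.5%) were called, all higher in dKO: Nfkbia, Tnfaip3 and Rela. Over all 12467 tested genes 53.1% were called, 20.4% higher and 32.6% lower in dKO, so the share of these genes that was called lies below the background and the share called higher lies above it. The background depends on the scaling: under median-of-ratios 25.8% were higher and 24.2% lower (4 of the 8 genes called, 50%, against 49.9%), and under TPM 18.0% were higher and 36.9% lower (3 of the 8 genes called, 37.5%, against 54.9%). The same 3 genes were called without dKO replicate 5, when 49.3% of tested genes were called and 18.9% called higher. On this scale none of the 8 passed the study's fold limit of an absolute log2 change over 1.5, which 1.98% of tested genes passed (1.43% higher), or 1.83% (1.25% higher) without dKO replicate 5. Tnfaip3 passed it under limma-voom, at 1.54 (adjusted p = 0.00765). The study's methods give the limit on the log2 scale, while the legend of its heatmap gives 1.5-fold. Nfkbia and Tnfaip3 lay past a plain 1.5-fold limit, read after the values were seen, as did 17.9% of tested genes (8.92% higher). Without dKO replicate 5 both genes also passed it, as did 17.1% of tested genes (8.26% higher). The median log2 fold change of all tested genes was −0.10, and −0.15 under TPM and −0.02 under median-of-ratios. Groups that did not overlap were found for Nfkbia and Tnfaip3, both higher in dKO, and for 27.4% of tested genes (11.3% with dKO higher). Without dKO replicate 5 the same 2 genes did not overlap between groups, and neither did 29.0% of tested genes (11.7% with dKO higher).

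**Figure D2:**
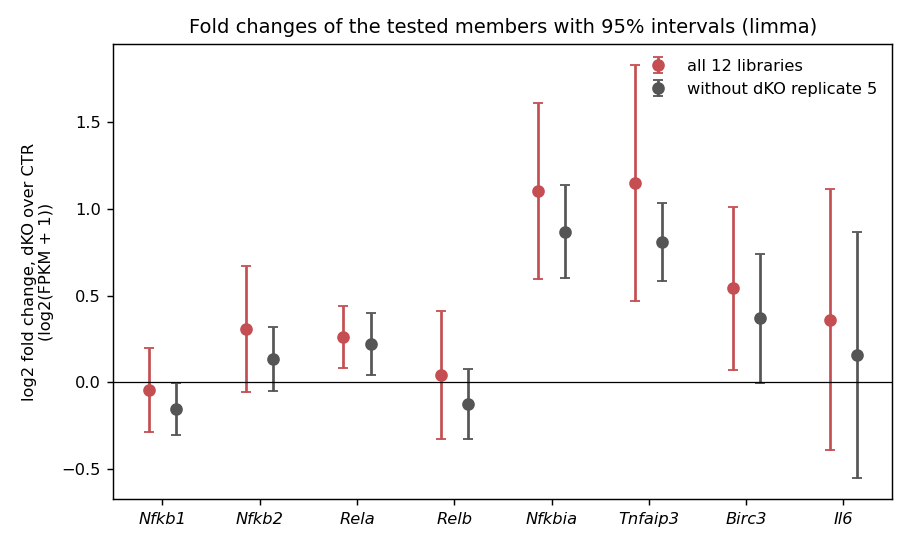
Log2 fold change of dKO over CTR on the log2(FPKM + 1) scale for the 8 tested genes, from limma, with 95% intervals, over all 12 libraries (red) and without dKO replicate 5 (grey). The intervals of Rela, Nfkbia and Tnfaip3 lie above 0 both ways, and those of Nfkbia and Tnfaip3 narrow when the library is left out.

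Among the subunits, Rela was slightly higher in dKO, and the levels of Nfkb1, Nfkb2 and Relb were not called different. Rela (ENSMUSG00000024927, chr19:5687493-5698161) encodes p65, the subunit that carries the main activation domain of the classical dimer. Its FPKM was 28.0 to 32.5 in CTR (median 30.4) and 42.1, 32.0, 32.5, 33.0, 42.3 and 38.4 in dKO replicates 1 to 6. All but dKO replicate 2 lay above every CTR library, and replicates 1 and 5 were nearly equal at the top. The log2 fold change was 0.26 (SE 0.08, adjusted p = 0.0172), and 0.22 (SE 0.08, adjusted p = 0.0398) without dKO replicate 5.

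Nfkb1 (ENSMUSG00000028163, chr3:135290264-135397742) encodes p105, the precursor of the DNA-binding subunit p50. It ranged from 8.38 to 10.2 FPKM in CTR (median 9.30), and was 7.37, 7.92, 8.17, 9.20, 13.4 and 8.29 in dKO. Apart from replicate 5, the dKO libraries lay at or below the middle of the CTR range, 4 of them below every CTR library. The change was −0.04 on the log2 scale (SE 0.11, adjusted p = 0.760), and −0.15 (SE 0.07, adjusted p = 0.0835) without dKO replicate 5.

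Nfkb2 (ENSMUSG00000025225, chr19:46292759-46303812), whose product p100 is processed to p52 and partners RelB in the alternative pathway, was 11.4 to 16.3 FPKM in CTR (median 13.0). The dKO values were 16.3, 14.3, 15.3, 13.2, 31.1 and 15.1. The groups overlapped, and replicate 5 stood at 2.06 times the median of the other dKO libraries. On the log2 scale the difference was 0.31 (SE 0.17, adjusted p = 0.142), and 0.14 (SE 0.09, adjusted p = 0.205) without it. Psd, a gene on the opposite strand that overlaps Nfkb2, was 0.165 to 0.867 FPKM, and reads of the 2 genes cannot be told apart if the counting ignored strand.

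Relb (ENSMUSG00000002983, chr7:19339017-19363425), the partner of p52 and itself an NF-kB target, was 3.97 to 5.91 FPKM in CTR (median 4.73). In dKO it was 4.64, 3.91, 4.41, 4.53, 9.91 and 4.52. Without replicate 5 the dKO values fell inside the CTR range but for replicate 2, just under it. The log2 fold change was 0.04 (SE 0.17, adjusted p = 0.840) with and −0.12 (SE 0.09, adjusted p = 0.288) without that library. Its sign also turned without CTR replicate 1 and under TPM.

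The largest fold changes among the 8 tested genes were those of the feedback genes Nfkbia and Tnfaip3. Nfkbia (ENSMUSG00000021025, chr12:55535332-55539432) encodes IkBα, the inhibitor that returns nuclear dimers to the cytoplasm. Its FPKM was 30.0, 37.5, 30.3, 46.0, 33.4 and 25.1 in CTR replicates 1 to 6, and 61.3, 59.9, 63.0, 62.3, 166 and 59.9 in dKO. All dKO libraries lay above all CTR libraries. Leaving out replicate 5, the dKO libraries were tightly bunched, with a coefficient of variation of 2.28% against 21.5% in CTR. Their mean was 61.3 ± 1.39 (SD, n = 5) against 33.7 ± 7.26 (SD, n = 6) in CTR, a 1.82-fold difference. Its log2 fold change was 1.10 (SE 0.24, adjusted p = 0.00175) over all libraries and 0.87 (SE 0.12, adjusted p = 0.000163) without replicate 5. The overlapping antisense gene Gm36634 was at most 0.047 FPKM.

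Tnfaip3 (ENSMUSG00000019850, chr10:18874201-18891405) encodes A20, an enzyme that edits ubiquitin chains and ends signalling upstream of IKK. Its level was 1.36, 1.43, 1.46, 1.96, 1.56 and 1.85 FPKM in CTR and 4.33, 3.29, 4.10, 3.42, 18.0 and 2.75 in dKO. The groups did not overlap, and replicate 5 was at 5.27 times the median of the other dKO libraries. The mean of those 5 libraries was 3.58 ± 0.641 (SD, n = 5) against 1.60 ± 0.245 (SD, n = 6) in CTR, a 2.23-fold difference. Its log2 fold change was 1.15 (SE 0.32, adjusted p = 0.00824), and 0.81 (SE 0.10, adjusted p = 8e-05) without replicate 5. Being on the log2(FPKM + 1) scale, it understates the change of a gene this low.

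Birc3 (ENSMUSG00000032000, chr9:7845790-7873229) encodes cIAP2, a ubiquitin ligase of the TNF receptor complex that protects cells from death. It was 4.35, 6.36, 5.66, 9.52, 7.50 and 4.43 FPKM in CTR and 6.67, 7.66, 10.03, 9.0, 17.9 and 7.80 in dKO. The groups overlapped, with CTR replicate 4 higher than 4 of the dKO libraries. The log2 fold change was 0.54 (SE 0.22), and the adjusted p of 0.0506 just missed the threshold. It was 0.37 (SE 0.17, adjusted p = 0.0892) without dKO replicate 5, and 0.66 (adjusted p = 0.0192) without CTR replicate 4. The call also turned on dKO replicate 1 (0.63, adjusted p = 0.0312 without it), on the scaling and on a replicate block: with all 12 libraries it passed under median-of-ratios (adjusted p = 0.0319), quantile scaling (0.0334), limma-voom (0.0459), a pseudocount of 0.1 (0.0486) and the block (0.0125).

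Levels of the feedback genes were also set against Rela in the same library. The ratio of Nfkbia to Rela FPKM was 0.801 to 1.47 in CTR (median 1.04), 1.46 to 1.94 in the other dKO libraries (median 1.88) and 3.91 in dKO replicate 5. The ratio of Tnfaip3 to Rela was 0.0462 to 0.0628 in CTR, 0.0715 to 0.126 in the other dKO libraries and 0.426 in replicate 5. The Nfkbia ratio was above that of every CTR library in 5 of 6 dKO libraries, and the Tnfaip3 ratio in 6 of 6. By median level in CTR, Nfkbia (31.9) and Rela (30.4) came at the top with overlapping ranges, followed by Nfkb2 (13.0), Nfkb1 (9.30), Birc3 (6.01), Relb (4.73), Tnfaip3 (1.51), Il6 (1.12), Tnf (0.197) and Il1b (0). Of these neighbours, Rela and Nfkb2, Nfkb2 and Nfkb1, and Relb and Tnfaip3 did not overlap, and the others did. In dKO, Nfkbia (median 61.8) no longer overlapped Rela (35.7) and lay above it in 6 of 6 libraries.

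Of the cytokines, Tnf and Il1b were under 1 FPKM in all libraries but dKO replicate 5, and Il6 varied within both groups. Il6 (ENSMUSG00000025746, chr5:30218112-30224979), the ligand that signals through gp130, was 0.945, 0.561, 1.29, 0.236, 1.32 and 4.26 FPKM in CTR and 2.87, 1.33, 1.78, 0.735, 4.66 and 0.917 in dKO. The groups overlapped widely, and CTR replicate 6 was close to dKO replicate 5. The log2 fold change was 0.36 (SE 0.35, adjusted p = 0.399), with a 95% interval of −0.39 to 1.11, and 0.16 (SE 0.33, adjusted p = 0.710) without dKO replicate 5. It was 0.62 (adjusted p = 0.0975) without CTR replicate 6. Its values rested on 10 to 198 fragments a library.

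Tnf (ENSMUSG00000024401, chr17:35418357-35420983), the ligand that starts the classical pathway, did not pass the filter. It was 0.175, 0.181, 0, 0.314, 0.214 and 0.466 FPKM in CTR and 0.0393, 0.242, 0.452, 0.170, 7.53 and 0.147 in dKO. Leaving out replicate 5, all dKO values lay inside the CTR range. An exact two-sided permutation test of the mean log2(FPKM + 1) gave a difference of 0.45 (p = 0.569), and −0.02 (p = 0.872) without replicate 5. In fragments, the CTR libraries held 38 and the other 5 dKO libraries 30, a rate ratio of 0.948 (95% exact interval 0.568 to 1.57), while dKO replicate 5 alone held 216, a ratio of 33.3 (23.5 to 48.3). These intervals cover counting error only.

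Il1b (ENSMUSG00000027398, chr2:129206490-129213059), whose product is cut to active IL-1β by caspase-1, was near absent. In CTR it was at 0 in 5 of 6 libraries and 0.0317 FPKM in replicate 3, where 3 fragments, the limit that a count of 0 allows, correspond to 0.0877 to 0.101 FPKM. In dKO it was 0.0676, 0.238, 0.0896, 0.0292, 2.81 and 0.0316, above 0 in every library. The CTR libraries held 1 fragment in all, the other 5 dKO libraries 15, and dKO replicate 5 held 94. The rate ratio of those 5 libraries to CTR was 18.0, with a counting interval from 2.77 to 759. The difference in mean log2(FPKM + 1) was 0.42 (exact two-sided permutation p = 0.00649, not adjusted) and 0.11 (p = 0.00649) without replicate 5, and with any 1 CTR library left out the p was 0.119 to 0.141. In limma with no filter the adjusted p of Il1b was 0.327. The dKO libraries other than replicate 5 held 1 to 8 fragments each, at or near the limit of detection.

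Among the other genes of the pathway, some were higher and some lower in dKO. Of 117 genes in 8 lists, all in the table, 97 were tested, 28 were higher (28.9%) and 16 lower (16.5%). The 45.4% called lies below the 53.1% of all tested genes, with a larger share higher than their 20.4% and a smaller share lower than their 32.6%. Without dKO replicate 5, 95 were tested, 24 were higher (25.3%) and 17 lower (17.9%), against 18.9% and 30.3% of all tested genes, and 38 genes were called in the same direction both ways. The median log2 fold change was 0.08, and 0.02 without dKO replicate 5, against −0.10 over all tested genes both ways. Tnfrsf11a and Cxcl10 had no CTR library at 1 FPKM and passed the filter only through the dKO libraries, so they had to differ. Without these 2 genes 26 of 95 were higher and 16 lower. Over the 97 genes, 32 were higher and 12 lower under median-of-ratios, and 25 and 20 under TPM.

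**Figure D3:**
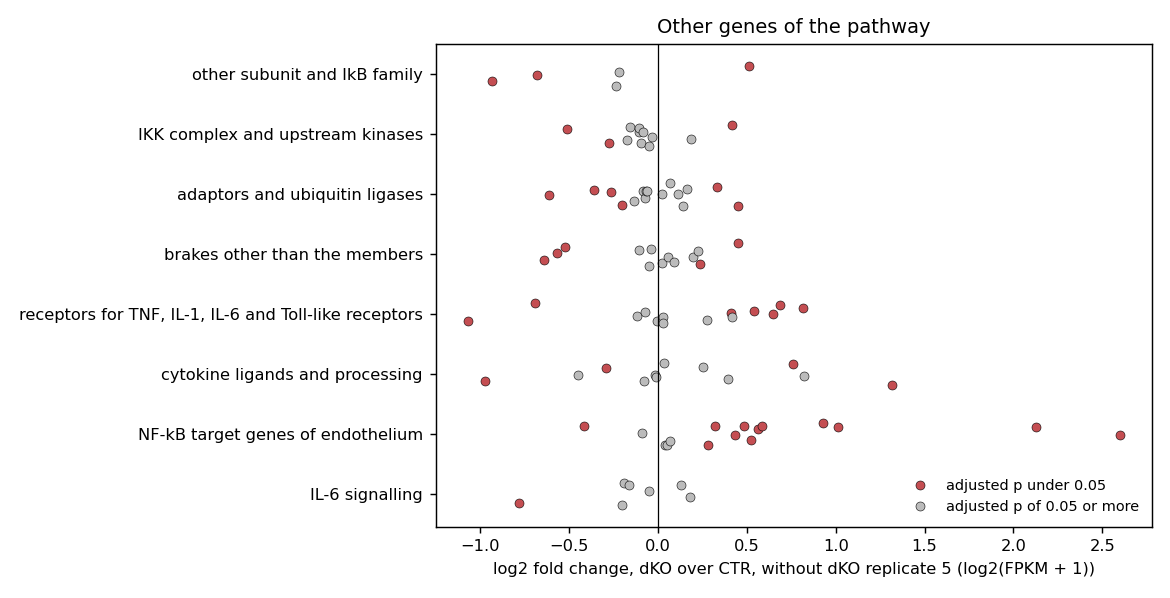
Log2 fold change of dKO over CTR, without dKO replicate 5, for the tested genes of 8 pathway lists on the log2(FPKM + 1) scale. Each point is a gene, red where limma's adjusted p was under 0.05; the target genes of endothelium lie mostly right of 0, with Ccl2 at 2.60 and Ccl7 at 2.13.

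At the receptors, leaving out Tnfrsf11a, 5 of 14 tested genes were higher (35.7%) and 2 lower (14.3%), both with and without dKO replicate 5, against 20.4% and 32.6% of all tested genes, or 18.9% and 30.3% without that library. Under TPM and quantile scaling 4 of the 14 were lower. Tnfrsf11a, which encodes RANK, was 0.471 to 0.848 FPKM in CTR and 1.95 to 4.89 in dKO. Tlr2, a receptor for bacterial lipoproteins, was 1.92 to 3.13 in CTR, 4.02 to 6.52 in 5 dKO libraries and 27.8 in dKO replicate 5. Its log2 fold change was 1.07 (SE 0.36, adjusted p = 0.0228), and 0.69 (SE 0.12, adjusted p = 0.000701) without that library. Cd14, which hands lipopolysaccharide to the Tlr4 complex, was 5.05 to 8.16 in CTR, 8.87 to 16.2 in 5 dKO libraries and 64.0 in replicate 5, a change of 1.19 (SE 0.35, adjusted p = 0.0129), and 0.81 (SE 0.15, adjusted p = 0.00076) without it.

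Tlr4 itself was 5.72 to 9.74 FPKM in CTR and 9.67 to 14.7 in dKO (log2 fold change 0.53, SE 0.12, adjusted p = 0.00315, and 0.54, adjusted p = 0.00552, without dKO replicate 5). The 2 lower genes of this list were Il1r1 and Il6st. Il1r1, the signalling receptor for IL-1, was 21.2 to 34.2 in CTR and 10.2 to 19.9 in dKO, without overlap, a change of −0.96 (SE 0.15, adjusted p = 0.000237), and −1.07 (adjusted p = 7.45e-05) without dKO replicate 5. Il6st, which encodes gp130, was 117 to 160 in CTR and 61.8 to 104 in dKO, also without overlap, a change of −0.65 (SE 0.12, adjusted p = 0.000778), and −0.69 (adjusted p = 0.000957) without dKO replicate 5.

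The receptors for TNF were not called, with log2 fold changes of −0.14 for Tnfrsf1a (adjusted p = 0.130) and 0.09 for Tnfrsf1b (adjusted p = 0.474), and of −0.12 and 0.03 without dKO replicate 5 (adjusted p = 0.244 and 0.823). Tnfrsf1a was called lower under TPM (adjusted p = 0.0451) and quantile scaling (0.0202). The value for Il6ra, which binds IL-6 itself, was 0.22 (adjusted p = 0.290), and 0.27 (adjusted p = 0.216) without that library. Of the 7 IL-6 signalling genes behind gp130, 1 was called (14.3%), against 53.1% of all tested genes. It was Jak2, with a change of −0.71 (adjusted p = 0.000172), and −0.78 (adjusted p = 6.03e-05) without dKO replicate 5. Tyk2 was called higher under median-of-ratios (adjusted p = 0.045) and quantile scaling (0.0412), and Stat3 lower under TPM (0.0464).

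In the IKK complex and its upstream kinases, 2 of 12 genes were higher (16.7%) and 3 lower (25%). Over all tested genes the shares were 20.4% and 32.6%. Without dKO replicate 5, 1 of the 12 was higher (8.33%) and 2 lower (16.7%), against 18.9% and 30.3%. With all libraries, TPM gave 1 higher and 4 lower, and median-of-ratios and quantile scaling gave 2 and 2. The catalytic subunits Chuk (−0.19, adjusted p = 0.0529) and Ikbkb (−0.09, adjusted p = 0.261), the scaffold Ikbkg (−0.02, adjusted p = 0.849) and Map3k14, the kinase of the alternative pathway (−0.10, adjusted p = 0.516), were not called. Without dKO replicate 5 their values were −0.18, −0.11, −0.03 and −0.08, with adjusted p of 0.0938, 0.213, 0.790 and 0.636, and Chuk was called lower under TPM (adjusted p = 0.0205). Tab2, an adaptor of the TAK1 kinase, was lower without overlap, 21.9 to 30.5 FPKM in CTR and 17.7 to 20.7 in dKO (−0.50, SE 0.08, adjusted p = 0.000193, and −0.51, adjusted p = 0.000476, without dKO replicate 5). Of 16 tested adaptors and ubiquitin ligases 2 were higher (12.5%) and 4 lower (25%), with and without dKO replicate 5. These shares lie below the 20.4% and 32.6% of all tested genes, or 18.9% and 30.3% without that library. Median-of-ratios turned the split to 4 higher and 2 lower, with and without replicate 5, and quantile scaling gave 3 and 3. Traf3ip2, the adaptor of IL-17 receptors, was 5.18 to 6.33 in CTR and 3.24 to 4.15 in dKO (−0.58, SE 0.07, adjusted p = 2.01e-05), and Ticam1, the adaptor TRIF of Tlr3 and Tlr4, was 4.85 to 6.74 and 7.06 to 9.32 (0.44, SE 0.08, adjusted p = 0.000703). Without dKO replicate 5 these were −0.61 (adjusted p = 2.89e-05) and 0.45 (adjusted p = 0.00162).

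The remaining IkB-like genes went different ways. Nfkbie, which encodes IkBε, was 1.89 to 2.82 FPKM in CTR, 3.43 to 4.18 in 5 dKO libraries and 11.6 in dKO replicate 5, a log2 fold change of 0.75 (SE 0.22, adjusted p = 0.0127), and 0.51 (SE 0.09, adjusted p = 0.000608) without that library. The value for Rel, the subunit c-Rel, was −0.16 (adjusted p = 0.232), and −0.22 (adjusted p = 0.0869) without it. Nfkbiz and Bcl3, nuclear IkB proteins that act as cofactors and were picked out after their values were seen, were lower. Nfkbiz was 10.6 to 15.5 in CTR and 6.11 to 7.12 in 5 dKO libraries but 23.8 in dKO replicate 5. Its change was −0.65 (adjusted p = 0.0487) over all libraries and −0.94 (SE 0.09, adjusted p = 1.5e-05) without replicate 5. Over all libraries the call was lost under median-of-ratios (adjusted p = 0.0902) and quantile scaling (0.0680). Nfkbid, a nuclear IkB gene that lay below the filter, was 0.227 to 0.415 FPKM in CTR and 0.487 to 0.879 in dKO, with every dKO library above every CTR library. Bcl3 differed by −0.58 (adjusted p = 0.00209), and by −0.68 (adjusted p = 0.000201) without that library.

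Of 13 tested brakes other than Nfkbia, Tnfaip3 and Birc3, 2 were higher (15.4%) and 3 lower (23.1%), with and without dKO replicate 5. Over all tested genes the shares were 20.4% and 32.6%, or 18.9% and 30.3% without that library. Of the higher ones, Cyld was called both ways, at 3.28 to 4.02 FPKM in CTR and 4.03 to 4.86 in dKO. Its groups did not overlap, nor did 11.3% of tested genes with dKO higher. Its log2 fold change was 0.23 (adjusted p = 0.0101), and 0.23 (adjusted p = 0.0180) without dKO replicate 5. Each scaling also called Cyld higher. N4bp1 was called over all libraries (adjusted p = 0.0324) but not without replicate 5 (0.0616). Zc3h12a was called without replicate 5 (adjusted p = 0.000998) but not over all libraries (0.0551). Over all libraries, Zc3h12a passed under median-of-ratios (adjusted p = 0.0418) and quantile scaling (0.0404), and N4bp1 lost its call under TPM (0.0746). The 3 lower ones did not overlap between groups, nor did 16.1% of tested genes with dKO lower. They were Socs3, which blocks gp130 signalling (66.1 to 86.2 FPKM in CTR, 33.5 to 64.1 in dKO), Zfp36, which destabilises cytokine mRNAs (22.8 to 27.6 and 15.5 to 17.4), and Tnip2, a partner of A20 (12.4 to 16.1 and 8.40 to 11.2). Their log2 fold changes were −0.57 (adjusted p = 0.00265), −0.55 (adjusted p = 1.33e-05) and −0.50 (adjusted p = 0.000297), and without dKO replicate 5 −0.64, −0.57 and −0.53 (adjusted p = 0.00123, 3.91e-05 and 0.000445). Il1rn, the natural antagonist of the IL-1 receptor, was below the filter at 0.160 to 0.317 in CTR, 0.457 to 0.768 in 5 dKO libraries and 3.30 in dKO replicate 5.

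Among cytokine ligands and processing genes, 3 of 12 tested were higher (25%) and 1 lower (8.33%), against 20.4% and 32.6% of all tested genes. Without dKO replicate 5 it was 2 and 2 (16.7% each), against 18.9% and 30.3%. Pycard, 1 of the 3 higher genes, passed the filter only with the help of the dKO libraries. Of the 10 genes that reached 1 FPKM in every CTR library, 2 were higher and 1 lower over all libraries. Casp1, the protease that cuts pro-IL-1β, was 1.65 to 3.17 FPKM in CTR and 5.36 to 10.5 in dKO (log2 fold change 1.28, SE 0.15, adjusted p = 2.07e-05, and 1.31, adjusted p = 5.44e-05, without dKO replicate 5). Pycard, the adaptor that recruits it, was 0.773 to 1.77 in CTR and 2.13 to 4.90 in dKO (0.70, SE 0.15, adjusted p = 0.00206, and 0.76, adjusted p = 0.0021, without it). Neither peaked in dKO replicate 5, at 6.22 and 2.13.

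Leaving out Cxcl10, 11 of 16 tested NF-kB target genes of endothelium were higher in dKO and 0 lower at adjusted p under 0.05 in limma, while 20.4% of all tested genes were higher and 32.6% lower. Tnfaip8, 1 of the 11, passed the filter only with the help of the dKO libraries. With Tnfaip8 also left out, 10 of 15 were higher and 0 lower. Without dKO replicate 5, and with Tnfaip8 kept, 11 of 16 were higher (68.8%) and 1 lower (6.25%), with a median log2 fold change of 0.46. The shares of all tested genes were then 18.9% and 30.3%. The macrophage sum (717 to 1258 in CTR, 2330 to 5299 in dKO) was also higher in every dKO than in every CTR library. So were the endothelial sum (150.1 to 232.8 in CTR, 280.0 to 375.7 in dKO) and the leukocyte, mesothelial and interferon gene sums. The fibroblast sum was lower in every dKO library. The part of these shifts in the higher target genes was not tested. The chemokine Ccl2, which recruits monocytes, was 8.55 to 13.4 FPKM in CTR, 51.0 to 91.4 in 5 dKO libraries and 406 in dKO replicate 5. Its log2 fold change was 3.02 (SE 0.39, adjusted p = 5.06e-05) and 2.60 (SE 0.15, adjusted p = 4.2e-07) without that library. Ccl7, a related chemokine, was 4.72 to 8.73, 23.3 to 48.7 and 199 in the same order, and its change was 2.56 (SE 0.42, adjusted p = 0.000251), and 2.13 (SE 0.19, adjusted p = 8.48e-06) without replicate 5.

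Cxcl10, an interferon-induced chemokine, was 0.429 to 0.737 FPKM in CTR, 1.19 to 6.21 in 5 dKO libraries and 17.4 in replicate 5. The adhesion molecule Icam1 was 12.2 to 15.5 in CTR, 25.4 to 39.2 in 5 dKO libraries and 64.3 in replicate 5 (1.12, SE 0.20, adjusted p = 0.000459, and 0.93, SE 0.11, adjusted p = 5.85e-05 without it). Vcam1 was 12.1 to 20.5, 17.6 to 23.6 and 32.5 (0.44, SE 0.15, adjusted p = 0.0268, and 0.32, SE 0.12, adjusted p = 0.0427 without replicate 5). Sele, the selectin found on activated endothelium, was below the filter, at 0.138 to 0.413 in CTR, 0.268 to 0.686 in 5 dKO libraries and 1.96 in replicate 5.

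Across the 97 tested pathway genes, dKO replicate 5 was the highest of the 6 dKO libraries in 45 (46.4%), as it was for 13.1% of all tested genes, and lay more than 1 above every other dKO library on the log2(FPKM + 1) scale in 13 (13.4%), against 0.297%. Its excess was not shared by all pathway genes. The genes furthest above the other dKO libraries, picked out by that excess, included the neutrophil chemokines Cxcl1 (48.1 FPKM against 0.304 to 0.684), Cxcl2 (12.6 against 0 to 0.385) and Cxcl5 (26.3 against 0.329 to 1.94). They also included Csf3, the growth factor of neutrophils (23.2 against 0.242 to 1.46), and the acute-phase gene Saa3 (426 against 6.13 to 26.9). Others outside the pathway lists were Ptx3 (47.3 against 1.88 to 2.63) and H2-M2 (58.7 against 1.99 to 3.56). Clec4e (22.6 against 0.170 to 1.215), Acod1 (21.4 against 0.482 to 1.17) and Fpr1 (25.45 against 0.685 to 2.48) were among them too. The part of cell composition in these values was not tested. Zc3h12a, an RNase that degrades cytokine mRNAs, was 40.0 against 6.50 to 7.82. For Il18, Ptgs2 and F3, replicate 5 was not the highest dKO library. The sum of 11 interferon response genes, higher in every dKO than in every CTR library, was 228.6 in replicate 5, inside the range of the other dKO libraries.

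**Figure D4:**
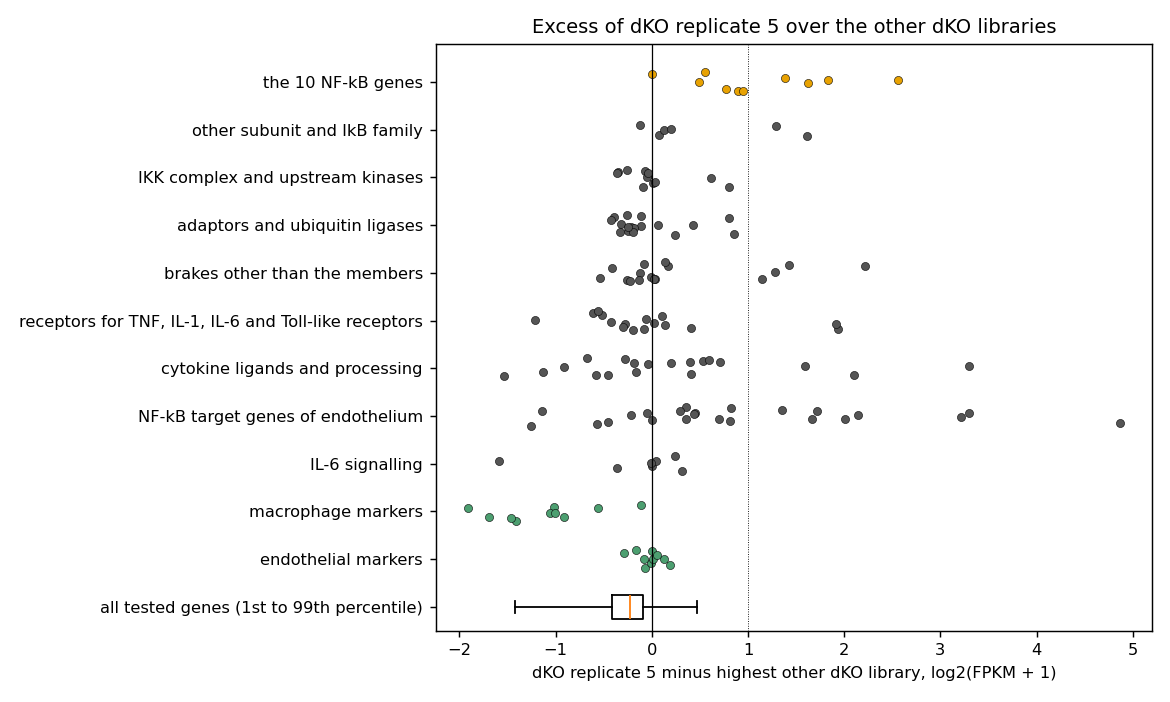
Value of dKO replicate 5 minus the highest of the other 5 dKO libraries, in log2(FPKM + 1), for the 10 genes (orange), the genes of 8 pathway lists (grey), macrophage and endothelial markers (green), and all 12467 tested genes (box: quartiles; whiskers: percentiles named on the axis). The 10 genes lie at or right of 0, up to 2.55 for Tnf and with Rela at 0.01, while 10 of 10 macrophage markers lie left of 0.

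The levels of the feedback genes were read beside the macrophage markers, whose sum was higher in every dKO library than in every CTR library. In CTR, replicate 4 had both the highest macrophage sum (1258) and the highest Nfkbia (46.0) and Tnfaip3 (1.96), and replicate 6 had the lowest macrophage sum (717) and the lowest Nfkbia (25.1) but, at 1.85, a Tnfaip3 level next below that of replicate 4. In the other 5 dKO libraries the macrophage sum ran from 2606 to 5299 while Nfkbia stayed between 59.9 and 63.0 FPKM. The dKO library with the largest macrophage sum, replicate 3, had the highest Nfkbia of these 5, and its Tnfaip3 of 4.10 lay below the 4.33 of replicate 1 (sum 3013) and above the 2.75 to 3.42 of the other three. The part of macrophages in the higher Nfkbia and Tnfaip3 of dKO was not tested.

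**Figure D5:**
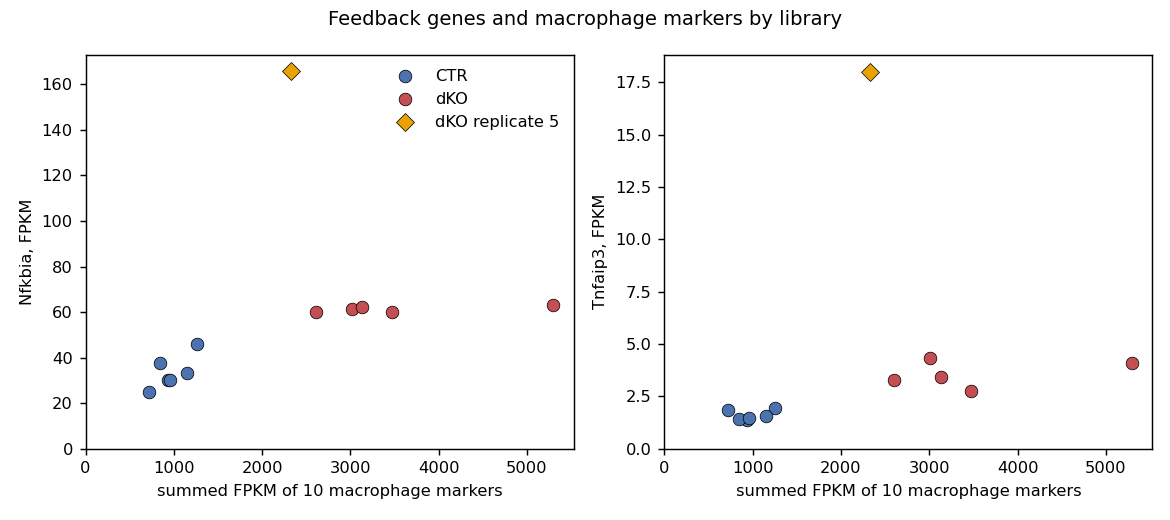
FPKM of Nfkbia (left) and Tnfaip3 (right) in each library against the summed FPKM of 10 macrophage markers, all axes linear from 0. Among the dKO libraries other than replicate 5 (red), Nfkbia is level at 59.9 to 63.0 over sums of 2606 to 5299, and dKO replicate 5 (orange diamond) lies highest at the lowest dKO sum, 2330.

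Correlations between the 8 tested genes within groups were lower without dKO replicate 5. After subtracting group means of log2(FPKM + 1), Pearson's r over the 12 libraries was positive for 28 of 28 pairs, with a median of 0.748. Without that library the median was 0.371, 20 of 28 pairs were positive, and the range was −0.801 to 0.826. These are descriptions over points that share libraries. The 3 genes most like Nfkbia over the 12 libraries were Serpina3g (r = 0.958), Steap4 (0.957) and Nck1 (0.948), and without dKO replicate 5 they were Rgmb (0.966), Sned1 (0.965) and Pde7b (0.964). For Il6 they were Slc25a37 (0.952), Eaf1 (0.952) and Cd44 (0.948), and without that library Azin1 (0.983), Dph2 (0.980) and Ppp1r15a (0.975). For neither gene were any of the 3 the same with and without that library.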

How the data were processed

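The authors trimmed reads (Trimmomatic), aligned them to mm39 with STAR and kept unique reads (sambamba). The authors deposited FPKM values, and the authors defined changed genes with DESeq2. The submitters' processing notes also name Bowtie2 2.2.3, HISAT2 2.1.0 and TopHat2, without roles. The counting program, annotation and strand setting were not given in the sources used here. The extraction protocol in the labels describes retinas, whereas the study's methods describe lungs. Columns named after tamoxifen were matched to the dKO group by elimination, since the other columns carry the control name. Both groups received tamoxifen, so that name alone does not identify the group. Sp1 was lower in those columns.

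FPKM is not a count, so genes reaching 1 FPKM in 6 or more of 12 libraries were tested on log2(FPKM + 1) with limma 3.58.1 in R 4.3.3 (lmFit, then eBayes with a trend), with Benjamini-Hochberg adjustment over all 12467 tested genes and calls at adjusted p under 0.05. Tnf and Il1b, below the filter, were given exact two-sided permutation tests over all 924 splits. Dividing FPKM by what 1 fragment is worth gave whole fragments (tolerance 0.002) for 28689 of 28689 genes, of which 8933 used the annotated exon length. These fragments served for depth and for a limma-voom alternative.

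The 10 genes, the pathway and marker lists and the tests were chosen with earlier results of these data known. Genes named from each pathway list are up to 3 with the largest absolute log2 fold change among called genes whose groups do not overlap, plus a set of subunits, receptors, kinases and adhesion molecules named whatever their values. Other genes, Jak2, Il18, Ptgs2 and F3 included, were picked after their values were seen. Markers come from the marker lists. Identifiers were matched to GENCODE vM39 on GRCm39 for 27706 of 28689 genes (96.6%). The κB consensus was searched by its usual 10-letter form and the GC box as GGGCGG. The steps were tested on simulated data with known changes. Python 3.11.15, NumPy 2.4.6, pandas 2.3.3, SciPy 1.17.1, numba 0.67.0 and Matplotlib 3.10.9 were used. Alternatives were other scalings (TPM, median-of-ratios, quantile), a pseudocount of 0.1, filters of none and 5 FPKM, limma-voom, robust eBayes, a replicate block, group medians, and leaving out each library in turn.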

Additional observations from a re-analysis of the deposited data

Results flagged for a closer look

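In groups of 6 libraries, a value counts as standing apart when its gap to the nearest other library exceeds 0.625 of the group's range. Chance alone marks about 1 in 20 groups, or 4.5 of the 90 groups examined here, and 22 were marked. Of these, 17 were high values of dKO replicate 5, a library that stood apart by the same measure for 1.05% of all tested genes. Among the 10 genes they were Nfkb1 at 13.4 FPKM, Nfkb2 at 31.1, Relb at 9.91, Nfkbia at 166, Tnfaip3 at 18.0, Birc3 at 17.9, Tnf at 7.53 and Il1b at 2.81. Among the 30 other pathway genes examined they were Nfkbie at 11.6, Il1rn at 3.30, Cd14 at 64.0, Tlr2 at 27.8, Ccl2 at 406, Ccl7 at 199, Cxcl10 at 17.4, Icam1 at 64.3 and Sele at 1.96. Pathway genes picked out after their values were seen, such as Nfkbiz and Zc3h12a, were not among those 30. Rela and Il6 in that library were highest but not apart, since dKO replicate 1 came close for Rela and the dKO values of Il6 were spread.

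The other 5 values came from different libraries. Il6 was 4.26 FPKM in CTR replicate 6, against 0.236 to 1.32 in the other CTR libraries. Il1b was 0.0317 in CTR replicate 3, which is 1 fragment, against 0 in the others. Tab2 was low in CTR replicate 4, at 21.9 against 27.9 to 30.5. Map3k14 was 2.56 in dKO replicate 4, against 1.80 to 2.07, and Pycard was 4.90 in dKO replicate 3, against 2.13 to 2.76.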

How the results depend on the processing

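Nfkbia (log2 fold changes 0.87 to 1.20), Tnfaip3 (0.81 to 1.54) and Rela (0.22 to 0.35) were higher and called in each alternative that tested them (a filter of 5 FPKM left out Tnfaip3). Birc3 passed the threshold under limma-voom (0.62, adjusted p = 0.0459), median-of-ratios (0.63), a pseudocount of 0.1 (0.61) and quantile scaling (0.61), and without dKO replicate 5 with median-of-ratios (0.45), an alternative added after the data were seen. With libraries left out in turn, Birc3 ran from 0.37 to 0.66, and passed without CTR replicate 4 and without dKO replicate 1. The sign of Nfkb1, not called, turned under median-of-ratios (0.041) and quantile scaling (0.016), and ran from −0.15 to 0.0038 with libraries left out. Relb turned under TPM (−0.00029), without CTR replicate 1 (−0.0037) and without dKO replicate 5 (−0.12; with median-of-ratios −0.050), and was −0.052 by group medians. It ran from −0.12 to 0.11 with libraries left out, and up to 0.13 under quantile scaling. The Tnf difference ran from −0.017 to 0.59 with libraries left out, and that of Il1b from 0.11 to 0.49. A pseudocount of 0.1 moved them to 0.76 and 1.44. Leaving out any CTR library took the unadjusted permutation p of Il1b over 0.05, and leaving out any dKO library did not; the cause was not tested. With no filter, limma's adjusted p was 0.327 for Il1b and 0.498 for Tnf. Calls over all genes went from 6614 to 4222 with a filter of 5 FPKM, where 7891 genes were tested, and those past the fold limit from 247 to 387 (TPM), 516 (limma-voom) and 486 (pseudocount 0.1). The cause of these last was not tested.

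The labels do not say whether replicate numbers pair the libraries. Deviations of same-numbered libraries correlated by −0.108 to 0.565, and 2 of 6 CTR libraries matched their own number best. With 6 libraries a group these values are too few to decide it. With a replicate block, called genes went from 6614 to 6955, and Birc3 alone of the 10 genes gained a call (0.54, adjusted p = 0.0125).

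Depth limits Tnf, Il1b and, in most libraries, Il6, whose values rest on few fragments. Sp3 transcript did not separate the groups, the cells held macrophage and fibroblast transcripts in amounts that differed between groups, and strand use in the counting is unknown. No second experiment bears on dKO replicate 5.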
